A study of Mus musculus with 15 samples.

Results

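The genes of MHC class I presentation and the immunoproteasome were followed in mouse hearts under isoproterenol, an agonist of β-adrenergic receptors. The set holds 10 named genes, H2-K1, H2-D1, B2m, Tap1, Tap2, Tapbp, Psmb8, Psmb9, Psmb10 and Nlrc5, found by symbol among the 55401 genes of the deposited tables, each once. Male C57BL6 mice of 12 weeks received 50 mg/kg/day of isoproterenol under the skin each day for 4, 8 or 11 days, and saline mice were the controls. No genetic change is given for any group, and ventricular RNA, all cell types together, was sequenced from total RNA libraries. There were 15 libraries, 4 after 4 days, 3 after 8 days and 4 after 11 days of isoproterenol, and 4 after saline, each named here by its group and letter. The methods state that a further 8-day replicate was left out for quality. Markers of cardiomyocytes (10 genes, such as Myh6) summed to 31310 to 40060 CPM in every library.

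MHC class I molecules carry peptides from inside the cell to its surface, where CD8 T cells and NK cells read them. A class I molecule is a heavy chain (H2-K1 or H2-D1 in this strain) bound to β2-microglobulin (B2m). Its peptides are cut by proteasomes, pumped into the endoplasmic reticulum by the transporter of Tap1 and Tap2, and loaded with the help of tapasin (Tapbp). Interferon replaces the catalytic subunits Psmb5, Psmb6 and Psmb7 of the constitutive proteasome by Psmb8, Psmb9 and Psmb10, which makes the immunoproteasome. Nlrc5 is the transactivator of class I genes. In the heart, endothelial cells and leukocytes are known for high class I levels and cardiomyocytes for low ones.

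Of the 10 genes, 7 lie on chromosome 17, in the MHC, by the GENCODE M21 annotation of GRCm38. Psmb9 (chr17:34181987-34187764, minus strand), Tap1 (chr17:34187553-34197225, plus strand), Psmb8 (chr17:34197721-34201454, plus strand) and Tap2 (chr17:34203527-34216321, plus strand) follow each other within 34335 bases, and Psmb9 and Tap1 overlap by 212 bases on opposite strands. The strand setting of the counting is not given in the sources used here, so reads of that overlap cannot be told apart. Tapbp lies at chr17:33915899-33929292 (plus strand), H2-K1 at chr17:33996017-34000347 (minus strand) and H2-D1 at chr17:35262730-35267499 (plus strand). B2m lies at chr2:122147686-122153083 (plus strand), Psmb10 at chr8:105935735-105938444 (minus strand) and Nlrc5 at chr8:94434356-94527272 (plus strand). The heavy chain genes share reads with relatives. Of the 50-base windows of their annotated transcripts, 12.8% for H2-D1 and 9.63% for H2-K1 also occurred in transcripts of other genes, mostly H2-Q genes and each other. The share was 2.87% for Tapbp and at most 0.65% for the other 7 genes. Windows were compared on the transcript strand only, so the overlap of Psmb9 and Tap1 does not count in these shares.

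RefSeq start sites (GRCm38.p6) were listed for 8 of the 10 genes. The 250 bases before the start are shown for the heavy chains, B2m and Tap1. H2-K1, H2-D1 and B2m varied together across libraries (Pearson r of 0.67 to 0.884 in log2 CPM), and Tap1 was the member that passed the test. Tap2 and Nlrc5, which had no listed start, also went with a heavy chain (0.856 for H2-D1 and Tap2, 0.855 for H2-K1 and Nlrc5). Likeness across libraries thus did not set the genes shown apart. Capitals mark matches on either strand to GGGNNNTCC (NF-κB type), GAANNGAAA or GAAANNGAA (interferon regulatory factor type), TGACG (cAMP response element type, the X2 part of the class I promoter) and CCAAT, with N for any base. The Tap1 window, read on the other strand and shifted by 25 bases, is the window of Psmb9.
H2-K1, chr17:34000348-34000597, minus strand: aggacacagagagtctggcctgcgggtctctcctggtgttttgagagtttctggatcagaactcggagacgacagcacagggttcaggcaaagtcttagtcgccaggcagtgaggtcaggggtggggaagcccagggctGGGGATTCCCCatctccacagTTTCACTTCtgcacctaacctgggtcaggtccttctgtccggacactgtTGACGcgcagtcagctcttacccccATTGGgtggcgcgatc
H2-D1, chr17:35262844-35263093, plus strand: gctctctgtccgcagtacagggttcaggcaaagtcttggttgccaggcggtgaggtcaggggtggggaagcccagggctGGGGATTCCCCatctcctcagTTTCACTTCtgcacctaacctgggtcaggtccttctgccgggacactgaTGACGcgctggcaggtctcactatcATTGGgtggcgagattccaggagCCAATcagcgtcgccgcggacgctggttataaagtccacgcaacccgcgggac
B2m, chr2:122147437-122147686, plus strand: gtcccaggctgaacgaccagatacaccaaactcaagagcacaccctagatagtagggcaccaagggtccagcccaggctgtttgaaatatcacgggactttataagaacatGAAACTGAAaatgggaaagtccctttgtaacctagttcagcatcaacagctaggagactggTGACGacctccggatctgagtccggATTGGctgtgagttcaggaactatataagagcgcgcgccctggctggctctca
Tap1, chr17:34187306-34187555, plus strand: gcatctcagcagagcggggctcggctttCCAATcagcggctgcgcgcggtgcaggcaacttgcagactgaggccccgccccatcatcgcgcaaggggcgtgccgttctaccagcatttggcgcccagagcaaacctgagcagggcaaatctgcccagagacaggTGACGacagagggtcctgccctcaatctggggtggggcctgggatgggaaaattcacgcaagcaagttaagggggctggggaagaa
H2-K1 and H2-D1 had the same elements in the same order, with a further CCAAT in H2-D1, and shared an unbroken run of 47 bases. All these windows held TGACG and CCAAT, which 17.8% and 33.8% of the 32851 promoter windows of that length hold. GGGNNNTCC was in 15.2% of all windows, GAANNGAAA in 6.31% and GAAANNGAA in 7.13%. A match describes letters and not a bound site. The windows of Psmb8 and Psmb10 held none of the elements, and those of Tapbp held CCAAT alone. By the GENCODE coordinates above, the windows of H2-D1, Tapbp, Psmb8 and Psmb9 lie inside the genes, and that of Psmb10 does in part. H2-K1 had 2 listed starts, of which the first was used. Bases before other starts were not searched, so an element missing here is missing from these windows only.

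The total of expected counts ran from 25404162 to 117777005 per library, and the members had between 46.25 (Psmb9) and 10856 (B2m) expected counts in a library. 1 library stood apart: in 8-day A, CT010467.1 and Lars2 together made up 15.8% of the total, and no more than 0.0916% elsewhere. Levels across genes are given in FPKM, which the authors scaled by effective length and library total, and levels of 1 gene across libraries in CPM, the count relative to the library's total after scaling by TMM. In saline hearts B2m stood highest, at 88.5 ± 24.2 FPKM (SD, n = 4). H2-K1 followed at 32.1 ± 7.52 FPKM and H2-D1 at 29.9 ± 8.87 FPKM, a difference well within their spread. Psmb10 had 16.2 ± 1.76 FPKM and Tapbp 11.5 ± 1.92 FPKM, with no overlap between their libraries. Tap2, at 4.75 ± 0.916 FPKM, and Psmb8, at 4.28 ± 0.473 FPKM, overlapped. Psmb9 (2.03 ± 0.237 FPKM), Tap1 (1.83 ± 0.692 FPKM) and Nlrc5 (1.27 ± 0.546 FPKM) were the lowest and overlapped each other. The presentation genes thus spanned from about 1 FPKM for their transactivator to the level of B2m.

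**Figure D1:**
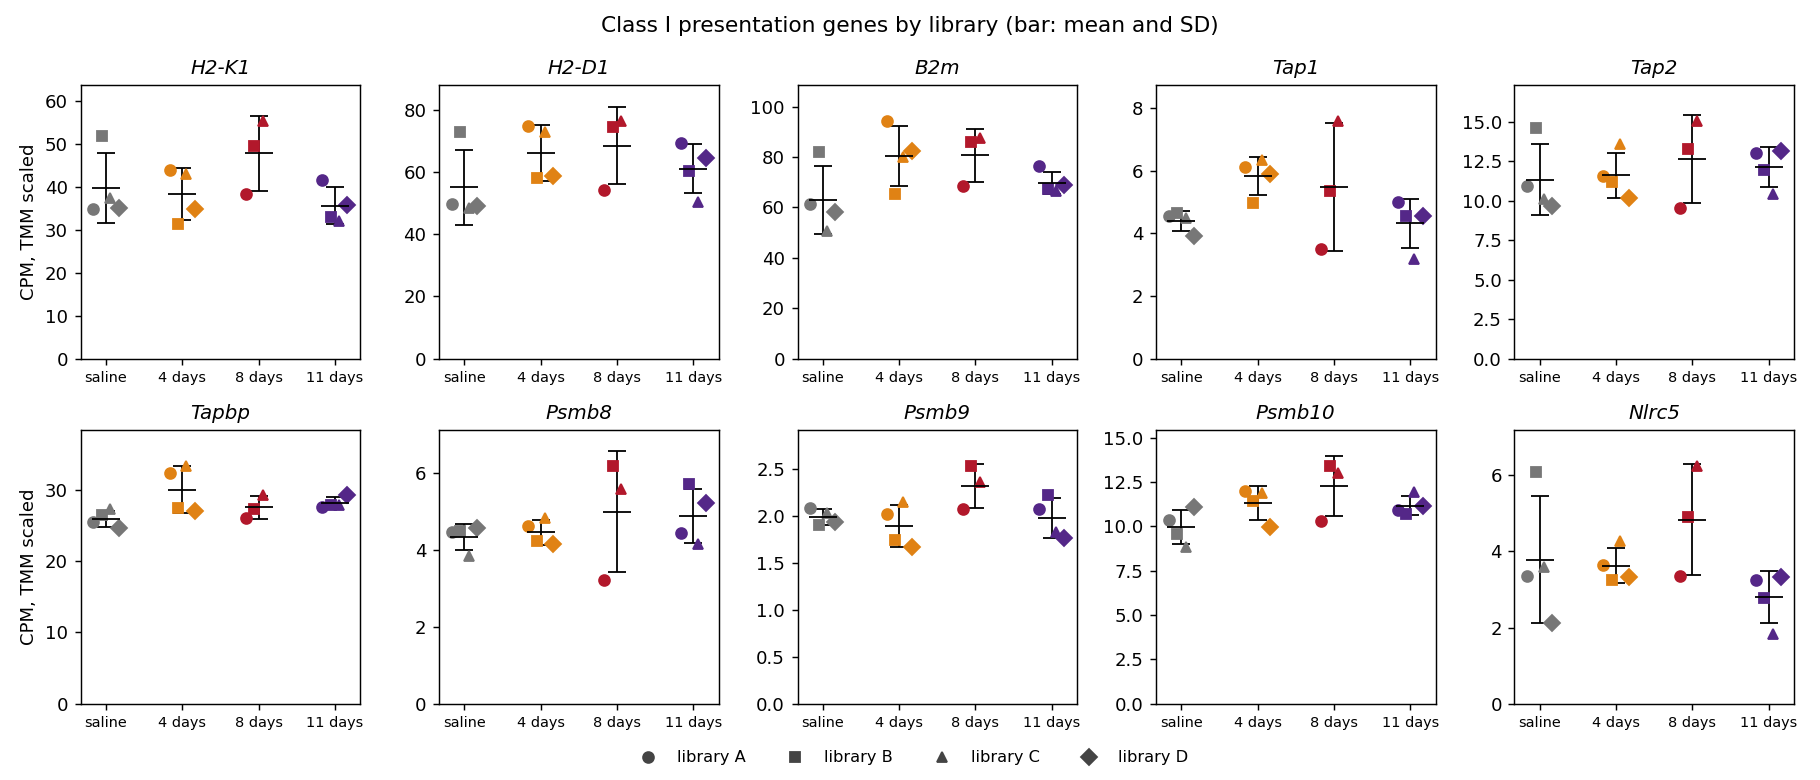
Levels of the 10 genes in CPM, scaled by TMM (vertical axes, from 0), in each library of the saline, 4-day, 8-day and 11-day groups, with the mean and SD. Tap1 is higher in all 4-day libraries (4.96 to 6.33 CPM) than in all saline libraries (3.93 to 4.65 CPM), and saline B stands above the other saline libraries for H2-K1 and H2-D1.

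After 4 days of isoproterenol, 1 of the 10 genes passed the test, Tap1, which was higher. Tap1, the first subunit of the peptide transporter, had 6.11, 4.96, 6.33 and 5.89 CPM in the 4-day libraries, against 4.54, 4.65, 4.49 and 3.93 CPM in the saline libraries. The groups did not overlap. Its log2 fold change was 0.41 (SE 0.11, 95% interval 0.17 to 0.65, adjusted p = 0.0346 by the quasi-likelihood test of edgeR, adjusted by Benjamini and Hochberg over the 26862 genes tested). Of all genes tested 9.46% passed in this comparison, so 1 of 10 is near the background. The groups did not overlap in 13.7% of all genes, and among the members this was so for Tap1 alone. The call was lost when any 1 library other than saline B or 4-day B was left out (adjusted p = 0.0661 to 0.125), with effective lengths as offsets (0.213) and with all groups in one fit (0.15), all by edgeR, and by limma on log2(FPKM + 0.1) (0.161).

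B2m, the light chain of all class I molecules, had 94.5, 65.3, 80.0 and 82.3 CPM in the 4-day libraries, against 61.3, 82.1, 50.5 and 58.0 CPM in the saline libraries. All 4-day libraries lay above 3 of the saline libraries, and saline B lay among them. Its log2 fold change was 0.36 (SE 0.14, unadjusted p = 0.0248 and adjusted p = 0.149 by edgeR). H2-D1 had 74.7, 58.0, 72.9 and 58.6 CPM after 4 days, against 49.8, 72.9, 48.4 and 48.9 CPM in saline hearts, and saline B again lay within the range of the 4-day libraries (log2 fold change 0.27, SE 0.14, adjusted p = 0.276 by edgeR). Without saline B, which was singled out after its values were seen, the test called 3 of 10 in place of 1. The share of all genes called in that refit is not given here. The 3 were B2m (0.50, adjusted p = 0.0165 by edgeR), H2-D1 (0.43, 0.0203) and Tap1 (0.42, 0.0371). H2-K1, the other heavy chain, did not follow: it had 44.0, 31.4, 43.0 and 34.9 CPM in the 4-day libraries, against 34.9, 51.9, 37.4 and 35.1 CPM in the saline libraries (log2 fold change -0.05, SE 0.14). Its direction, and those of Psmb9 and Nlrc5, turned when counts were scaled by library size only (0.16, 0.15 and 0.13), which moved the median of all genes of at least 5 CPM by 0.20 on the log2 scale and the share of higher genes among the calls to 89.6%, from 64.0% with TMM. Tapbp had a log2 fold change of 0.21 (SE 0.09, unadjusted p = 0.0299 and adjusted p = 0.167 by edgeR). The other 5 genes lay between -0.06 (Psmb9) and 0.20 (Psmb10), none past the test. Psmb10 was called by limma on log2(FPKM + 0.1) (0.53, adjusted p = 0.0392) and by edgeR when scaled by library size only (0.41, adjusted p = 0.0421), both of which moved the median of all genes of at least 5 CPM upwards after 4 days. The 95% intervals of all 10 genes stayed within a 2-fold change either way, and those of 8 within a 1.5-fold change.

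Within the 4-day group the genes varied together: 4-day A or 4-day C was the highest library for all 10 genes (4 and 6 of them), and 4-day B or 4-day D the lowest (5 and 5). 4-day A and 4-day C also held the most counts of the group (99301092 and 90773004, with 38083703 and 27867193 in 4-day B and 4-day D) and the highest summed macrophage markers (222 and 215 CPM, with 161 and 175 CPM in 4-day B and 4-day D). Their share of mitochondrial counts was the lowest of all 15 libraries (47.5 and 47.9%, with 52.1 and 50.8% in 4-day B and 4-day D, and up to 58.4% elsewhere). Macrophage markers, which include Cd68, Mrc1 and the C1q genes, were higher after 4 days for 9 of 12 genes, with summed levels of 161 to 222 CPM in 4-day libraries, against 96.6 to 148 CPM in saline libraries. By edgeR 9.46% of all genes passed after 4 days. Of 5 pan-leukocyte markers, 3 (Laptm5, Cd53 and Cd48) were higher, with sums of 22.4 to 38.4 CPM after 4 days, against 17.3 to 25.3 CPM in saline. Of 9 dendritic and B cell markers 0 were called by edgeR (3 at an unadjusted p under 0.05). They summed to 10.92 to 13.65 CPM after 4 days, against 10.72 to 15.71 CPM in saline. Of 12 markers of T and NK cells, 0 were called by edgeR (1 at an unadjusted p under 0.05), and they summed to 0.796 to 1.33 CPM in 4-day libraries, against 1.37 to 1.77 CPM in saline libraries. Of 10 endothelial markers 0 were called by edgeR (2 at an unadjusted p under 0.05), with sums of 367 to 404 CPM after 4 days, against 351 to 466 CPM in saline, and no marker was at 0 in a whole group. Of 9 fibroblast markers 8 were higher and 1 lower, with sums of 1137 to 2799 CPM after 4 days, against 704.5 to 875 CPM in saline. Of 10 cardiomyocyte markers, Actn2 was higher (0.35, adjusted p = 0.0443 by edgeR) and Myl2 (-0.73, 0.00169), Tnni3 (-0.50, 0.027) and Mb (-0.50, 0.0165) were lower after 4 days, with sums of 31780 to 36390 CPM, against 33610 to 40060 CPM in saline. The part of these cells, of depth and of the mitochondrial share in the class I levels was not tested. In tissue RNA, fewer cells of a type and less RNA per cell cannot be told apart.

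After 8 days, 0 of the 10 genes passed edgeR's test, and all 10 fold changes were above 0. Of all genes 2.27% passed. Unadjusted p-values under 0.05 were found for B2m and Psmb10 by edgeR, and DESeq2 and limma voom called 0 of the 10 as well. The median log2 fold change of the members was 0.28, against -0.01 over all genes, in a comparison that shares its saline libraries with the others. B2m had 68.4, 85.9 and 87.7 CPM in the 8-day libraries, against 61.3, 82.1, 50.5 and 58.0 CPM in the saline libraries (log2 fold change 0.35, SE 0.15, adjusted p = 0.303 by edgeR). Psmb10, the immune counterpart of Psmb7, had 10.3, 13.4 and 13.0 CPM, against 10.4, 9.59, 8.81 and 11.1 CPM in saline hearts (0.30, SE 0.12, adjusted p = 0.286 by edgeR). In both, 8-day B and 8-day C exceeded every saline library and 8-day A did not. None of the members had groups without overlap, against 12.9% of all genes. Macrophage markers, 0 of 12 called by edgeR (1 at an unadjusted p under 0.05), summed to 120 to 156 CPM after 8 days, against 96.6 to 148 CPM in saline. Of 9 fibroblast markers 4 were higher by edgeR, with sums of 927 to 1303 CPM, against 704.5 to 875 CPM in saline. Of 5 pan-leukocyte, 9 dendritic and B, 12 T and NK, 10 endothelial and 10 cardiomyocyte markers 0 were called (1, 2, 0, 1 and 3 at an unadjusted p under 0.05). The part of these cells was not tested.

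Within the 8-day group, 8-day A was the lowest of the 3 libraries for all 10 genes, and 8-day C the highest for 7. Nlrc5, the transactivator, had 3.36, 4.91 and 6.25 CPM after 8 days, against 3.35, 6.09, 3.60 and 2.11 CPM in saline (log2 fold change 0.34, SE 0.28). Tap1 had 3.51, 5.33 and 7.59 CPM after 8 days, and its fold change of 0.30 became -0.02 without 8-day C. The part of the share of CT010467.1 and Lars2 in the low values of 8-day A was not tested. Without 8-day A the test still called 0 of the 10. Without saline B it called B2m (0.51, adjusted p = 0.0267 by edgeR) and H2-D1 (0.47, adjusted p = 0.0497 by edgeR). The share of all genes called in these refits is not given here. The 95% intervals reached from -0.25 to 0.93 on the log2 scale, all within a 2-fold change and 5 within a 1.5-fold change.

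After 11 days, 0 of the 10 genes passed the test of edgeR, 0 had an unadjusted p under 0.05, and DESeq2 and limma voom called 0. Of all genes 3.75% passed. The fold changes fell on both sides of 0, from -0.44 for Nlrc5 to 0.17 for Psmb8, with a median of 0.10. H2-K1 had 41.5, 33.1, 31.9 and 35.8 CPM after 11 days, against 34.9, 51.9, 37.4 and 35.1 CPM in saline (log2 fold change -0.17, SE 0.12). H2-D1 had 69.1, 60.3, 50.4 and 64.3 CPM, against 49.8, 72.9, 48.4 and 48.9 CPM in saline (0.14, SE 0.13). Tapbp was the member whose groups did not overlap, with 27.6, 28.0, 27.9 and 29.4 CPM after 11 days, against 25.5, 26.4, 27.3 and 24.7 CPM in saline. Its difference was small (log2 fold change 0.11, SE 0.07, adjusted p = 0.465 by edgeR), and 10.6% of all genes had groups without overlap. Macrophage markers summed to 129 to 154 CPM and markers of T and NK cells to 0.523 to 0.918 CPM after 11 days, against 96.6 to 148 CPM and 1.37 to 1.77 CPM in saline. Of either 12, 0 were called by edgeR (4 each at an unadjusted p under 0.05). Of 9 fibroblast markers 3 were higher. Lower were Itgax (-2.32, adjusted p = 0.00699 by edgeR) and Cd79a (-1.79, 0.0317), of 9 dendritic and B markers, and Coro1a (-0.64, 0.0291), of 5 pan-leukocyte ones. Itgax and Cd79a had 0.405 and 0.184 CPM in saline. Of 10 endothelial and 10 cardiomyocyte markers 0 were called (1 and 3 at an unadjusted p under 0.05). The part of these cells was not tested. The intervals of all 10 members stayed within a 2-fold change and those of 9, all but Nlrc5, within a 1.5-fold change.

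Tap2, Psmb8 and Psmb9 were not called at any time and had no unadjusted p under 0.05. Tap2, which pairs with Tap1 in the transporter, had 11.5, 11.2, 13.6 and 10.14 CPM after 4 days, 9.55, 13.3 and 15.1 CPM after 8 days and 13.0, 11.9, 10.4 and 13.1 CPM after 11 days, against 10.9, 14.6, 10.11 and 9.67 CPM in saline. Its fold changes of 0.05, 0.15 and 0.09 (log2) were each smaller than their SE (0.13, 0.16 and 0.12). Psmb8, the immune counterpart of Psmb5, had 4.62, 4.21, 4.81 and 4.16 CPM after 4 days, 3.20, 6.18 and 5.58 CPM after 8 days and 4.44, 5.70, 4.14 and 5.21 CPM after 11 days, against 4.45, 4.47, 3.84 and 4.56 CPM in saline. Psmb9, the counterpart of Psmb6, had 2.02, 1.75, 2.16 and 1.67 CPM after 4 days, 2.07, 2.54 and 2.36 CPM after 8 days and 2.08, 2.23, 1.83 and 1.77 CPM after 11 days, against 2.09, 1.91, 2.04 and 1.94 CPM in saline. For these genes every treated group overlapped saline.

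**Figure D2:**
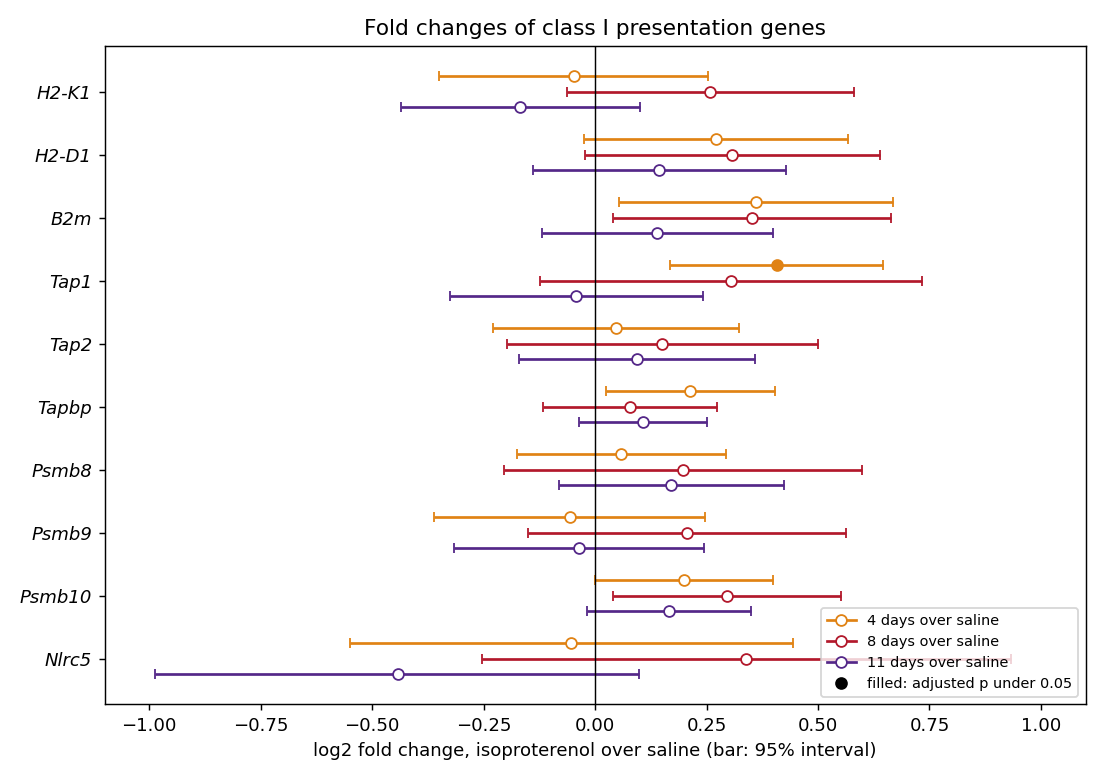
Log2 fold changes of the 10 genes over saline after 4, 8 and 11 days (points, filled where the adjusted p was under 0.05) with 95% intervals. Tap1 at 4 days, at 0.41, is the filled point, and no interval reaches a 2-fold change in either direction.

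The treated groups were also compared with each other, without saline. Between 11 and 4 days Tap1 was lower after 11 days and was the only member past the test (log2 fold change -0.45, SE 0.13, adjusted p = 0.0416 by edgeR), in a comparison in which 10.3% of all genes passed. It had 4.99, 4.54, 3.17 and 4.56 CPM after 11 days, against 6.11, 4.96, 6.33 and 5.89 CPM after 4 days. The groups overlapped only at 11-day A and 4-day B. The call was lost without any 1 library other than 11-day A or 4-day B (adjusted p = 0.081 to 0.119 by edgeR), and without 4-day B the test called B2m as well (-0.29, adjusted p = 0.0228 by edgeR). Between 8 and 4 days 0 of the 10 were called by edgeR, DESeq2 or limma voom (0.249% of all genes by edgeR), and H2-K1 alone had an unadjusted p under 0.05 by edgeR (0.31, SE 0.14).

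Between 11 and 8 days edgeR called 0 of the 10 genes and 0.138% of all genes, with 3 members at an unadjusted p under 0.05. These were H2-K1, Nlrc5 and B2m, each lower after 11 days. Nlrc5 had 3.26, 2.78, 1.83 and 3.33 CPM after 11 days, against 3.36, 4.91 and 6.25 CPM after 8 days, with no overlap, as for 11.6% of all genes (log2 fold change -0.78, SE 0.22, adjusted p = 0.171 by edgeR). H2-K1 had 41.5, 33.1, 31.9 and 35.8 CPM after 11 days, against 38.4, 49.5 and 55.4 CPM after 8 days (-0.42, SE 0.12, adjusted p = 0.16 by edgeR). DESeq2 called these 2 genes (adjusted p = 0.0371 for Nlrc5 and 0.0328 for H2-K1) in a test that called 1.13% of all genes, while limma voom called 0. By the F test over all 4 groups in edgeR, 0 of the 10 genes passed, against 13.0% of all genes, and B2m and Tap1 had an unadjusted p under 0.05.

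Across the 15 libraries the levels of the members went together. The 45 pairs had a median Pearson r of 0.53 in log2 CPM, from 0.12 to 0.88, with 0 pairs below 0. Over all pairs of 8523 expressed genes the median was 0.01 and 48.6% were below 0. Of the 45 pairs 8, or 17.8%, reached 0.7, against 2.21% of all pairs. H2-D1 and B2m were the closest pair (r = 0.88), followed by H2-D1 and Tap2 (0.86) and by H2-K1 and Nlrc5 (0.85). After the group means were taken out, H2-K1 and H2-D1, which share reads, had r = 0.95 and Tap2 and Nlrc5 0.90. None of the 8 pairs at 0.7 or above held an immunoproteasome subunit or Tapbp, and Tap2 and Psmb8 were just below, at 0.68. Psmb10 and Nlrc5 had the lowest r of all, 0.12. These are descriptions over 15 libraries with common groups, depths and scaling.

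**Figure D3:**
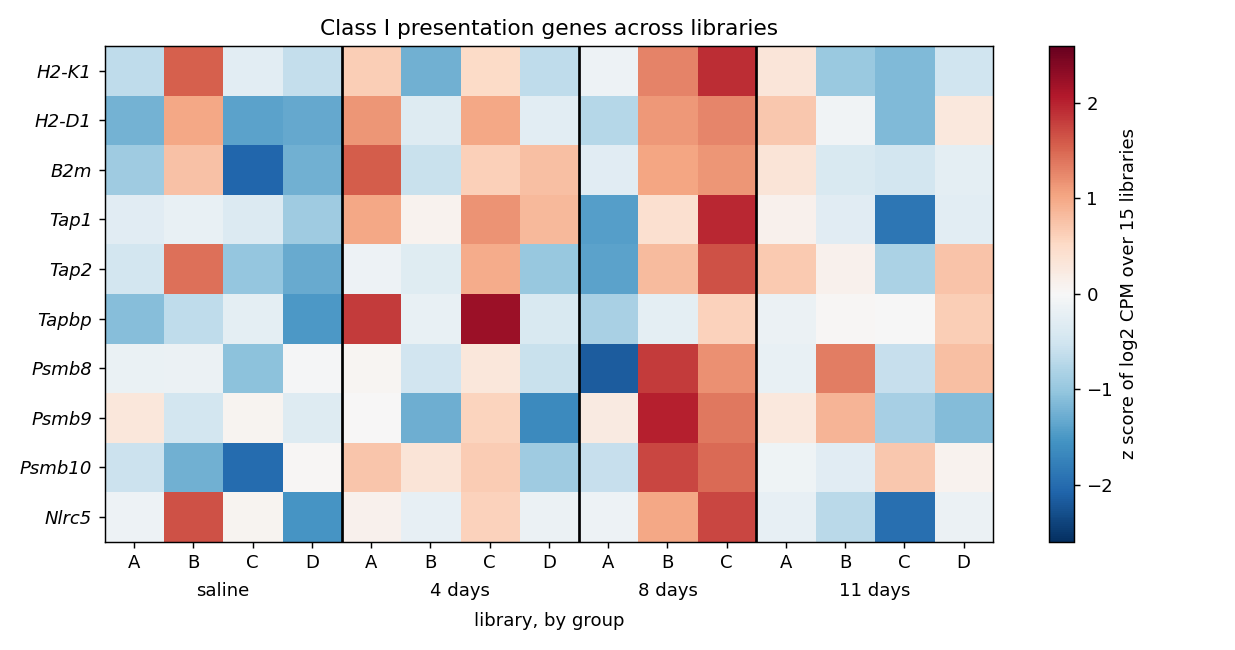
Level of each gene (rows) in each library (columns, by group) as a z score of log2 CPM over the 15 libraries. Saline B is high for H2-K1, H2-D1, B2m, Tap2 and Nlrc5 and not for Psmb9 or Psmb10, and 8-day A is the lowest of its group for all 10 genes.

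Within the saline group, saline B was the highest saline library for 6 of the 10 genes, H2-K1 (51.9 CPM, against 34.9 to 37.4 CPM in the other saline hearts), H2-D1, B2m, Tap1, Tap2 and Nlrc5, of which Tap1 was higher by a small margin (4.65 CPM, against 3.93 to 4.54 CPM). For the 3 immunoproteasome subunits and Tapbp another saline library was highest. Saline B was also the highest saline library for the summed markers of macrophages (148 CPM, against 96.6 to 123 CPM in the other saline libraries), of all leukocytes (25.3 CPM, against 17.3 to 21.3 CPM), of dendritic and B cells (15.7 CPM, against 10.7 to 13.6 CPM), of T and NK cells (1.77 CPM, against 1.37 to 1.69 CPM) and of endothelium (466 CPM, against 351 to 418 CPM). The part of these cells in its class I levels, and in the calls made without it, was not tested. The genes most like the mean z score of the members over the 15 libraries, among genes of at least 5 CPM, were Cdk9 (r = 0.92), Myo9b (0.87), Hdac7 (0.87), Ehd2 (0.86) and Dhx37 (0.85), followed by Ascc2, Plec, Agrn, Gtpbp2 and Numa1. For the single members the most similar genes were H2-Q4 for H2-K1 (r = 0.89), Ehd2 for H2-D1 (0.91), App for B2m (0.89), Plec for Tap1 (0.89), Por for Tap2 (0.91), Atp13a2 for Tapbp (0.93), Ccs and Nosip for Psmb8 (0.82 each), Pip5k1c for Psmb9 (0.81), Parp8 and Tmem260 for Psmb10 (0.82 each) and Pcdh12 for Nlrc5 (0.89).

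The immunoproteasome was also set against the subunits it replaces, as the ratio of FPKM within a library, which is free of library scaling. In saline hearts Psmb8 stood at 14.7 to 17.4% of Psmb5, Psmb9 at 2.6 to 3.53% of Psmb6 and Psmb10 at 32.3 to 39.3% of Psmb7. Psmb10 was at 53.9, 42.5, 54.4 and 44.6% of Psmb7 in the 4-day libraries, against 35.7, 39.3, 32.3 and 37.4% in the saline libraries. It was at 39.7, 41.3, 48.4 and 45.9% after 11 days. At both times every treated library was above every saline library, and the log2 ratio differed by 0.43 and 0.28 (exact permutation test, two-sided, p = 0.0286 for each, the smallest that 4 against 4 libraries allow, and 0.129 after adjustment over the 9 tests). After 8 days Psmb10 was at 30.3, 52.7 and 57.3% of Psmb7, with 8-day A below every saline library. For Psmb9 the log2 ratio to Psmb6 differed by 0.52 after 8 days and by -0.32 after 11 days (exact permutation p = 0.0857 and 0.0571, adjusted p = 0.193 and 0.171). Psmb8 to Psmb5 differed by 0.08, 0.33 and 0.18 after 4, 8 and 11 days (adjusted p of the exact permutation test 0.386, 0.206 and 0.3). None of the 9 passed after adjustment, and no single ratio could have: at the smallest p these groups allow, 6 of the 9 tests would have to sit at it together.

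**Figure D4:**
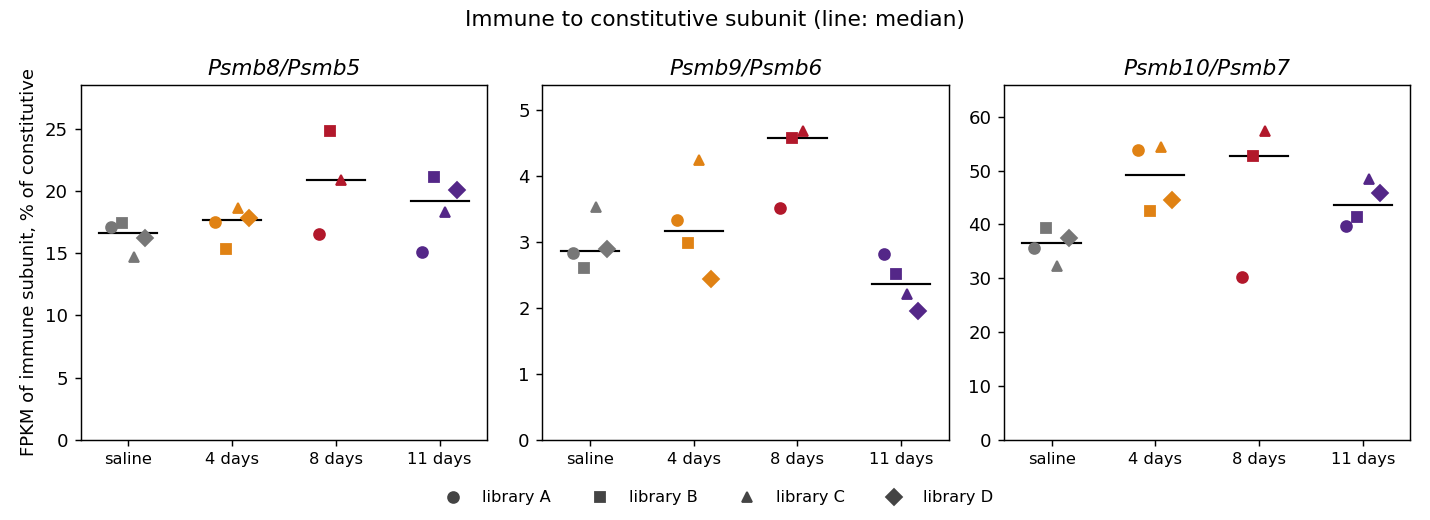
FPKM of Psmb8, Psmb9 and Psmb10 as a percentage of the constitutive subunit each replaces, per library, with the group median as a line. Psmb10 lies at 42.5 to 54.4% of Psmb7 after 4 days and at 39.7 to 48.4% after 11 days, above the saline range of 32.3 to 39.3%.

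The lengths behind these ratios moved too. Psmb10-203, a transcript of 426 bases, took 59.8 ± 7.48% of the Psmb10 transcripts after 4 days and 55.1 ± 3.20% after 11 days, against 42.4 ± 6.74% in saline (SD, n = 4 each), as RSEM assigned them. B2m has 1 annotated transcript. For H2-K1, a short transcript of 457 bases, H2-K1-215, was assigned 0 to 48.5% in the 8-day libraries, against 0 to 13.9% in the saline libraries. The 8-day libraries differed widely, with a mean of 19.0 ± 25.9% (SD, n = 3). The effective length of H2-K1 was 762.7 bases in 8-day A, against 1326 and 1192 bases in 8-day B and 8-day C. That of Psmb9 was 934.6 to 1189 bases after 11 days, against 833.9 to 1140 bases in saline. By edgeR the log2 fold change of Psmb9 itself was 0.21 after 8 days and -0.04 after 11 days. The part of length in the ratio of Psmb9 to Psmb6 was not tested. With counts in place of FPKM, added after the data were seen, the log2 ratio of Psmb10 to Psmb7 differed by 0.30 after 4 days and 0.15 after 11 days (adjusted p of the exact permutation test 0.171 and 0.36). The constitutive subunits were not called at any time by edgeR, with 0 at an unadjusted p under 0.05: Psmb5, Psmb6 and Psmb7 had log2 fold changes of 0.00, -0.14 and -0.11 after 4 days, -0.12, -0.26 and -0.19 after 8 days and -0.01, 0.07 and 0.01 after 11 days. After 4 days all of them were above 0 (0.20, 0.07 and 0.10) when scaled by library size only. By edgeR 9.46, 2.27 and 3.75% of all genes passed after 4, 8 and 11 days. Of 11 other subunits of the 20S core, Psmb3 alone was called, which is near that share. It was lower after 4 days (-0.30, SE 0.08, adjusted p = 0.0359 by edgeR), and the call ended with the removal of any single library but saline B and 4-day B (0.0532 to 0.109). Of 11 genes of proteasome activators, assembly factors and regulators, Psme4 and Nfe2l1 were lower after 4 days (-0.36 and -0.36, adjusted p = 0.0364 and 0.0137 by edgeR), and 0 were called by edgeR later (2 after 8 days and 3 after 11 days at an unadjusted p under 0.05). Psme4 lost its call in the same 6 removals (0.0612 to 0.107), Nfe2l1 without 4-day D (0.0529). Scaled by library size only, these genes came to -0.09 for Psmb3, -0.16 for Psme4 and -0.16 for Nfe2l1 (adjusted p = 0.663, 0.363 and 0.402 by edgeR), and by limma on log2(FPKM + 0.1) to -0.10, -0.19 and -0.12 (0.515, 0.169 and 0.648). With effective lengths as offsets Psmb3 and Nfe2l1 lost their calls (0.064 and 0.136 by edgeR). The PA28 genes that interferon raises, Psme1 and Psme2, were at 0.21 and -0.09 after 4 days, neither past the test, and are named after their values were seen.

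Around the members, the other class I heavy chain genes tested were H2-Q, H2-T and H2-M genes. All are nonclassical, so any call among them had to be of a nonclassical gene. Of 17 other class I heavy chain genes, 11 were tested, and 2 were higher after 4 days, 0 after 8 days (4 at an unadjusted p under 0.05) and 2 after 11 days by edgeR. The share of all genes that passed was 9.46, 2.27 and 3.75% after 4, 8 and 11 days. H2-T23, the gene of Qa-1, a ligand of NK cell receptors, had 12.5 to 16.4 CPM in 4-day libraries, against 9.94 to 12.3 CPM in saline libraries (log2 fold change 0.46, SE 0.10, adjusted p = 0.0117 by edgeR). It had 13.5 to 19.9 CPM after 11 days (0.62, SE 0.11, adjusted p = 0.00844 by edgeR), and after 8 days its value of 0.45 did not pass. H2-T22, a ligand of some γδ T cells, was higher after 4 days (0.53, SE 0.14, adjusted p = 0.0235 by edgeR) and H2-T24 after 11 days (0.85, SE 0.19, adjusted p = 0.0244 by edgeR). Reads of these families are hard to assign: 34.5% of the 50-base windows of H2-T22 occur in other genes, mostly H2-T10, 13.6% of those of H2-T23 and 3.17% of those of H2-T24. The call of H2-T23 after 4 days was lost without 4-day A (adjusted p = 0.0511 by edgeR) and that after 11 days held without each library, while limma on log2(FPKM + 0.1) gave 0.0573 and 0.116. That of H2-T22 was lost without saline A or saline D, or 4-day A, 4-day C or 4-day D (0.0578 to 0.0945), and that of H2-T24 without saline A or saline D, or 11-day A, 11-day B or 11-day D (0.0512 to 0.08). By limma on log2(FPKM + 0.1) both were lost (0.0794 for H2-T22 and 0.205 for H2-T24), and H2-T24 also with robust dispersions in edgeR (0.0937). The limma test called 1005 and 121 of all genes after 4 and 11 days, against 2540 and 1006 in the main test. With all class I heavy chains summed to 1 feature of 16 genes, the log2 fold change was 0.12, 0.34 and 0.07 after 4, 8 and 11 days, none past the test of edgeR (adjusted p = 0.678, 0.389 and 0.844).

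Hfe, a class I-like partner of B2m that regulates iron uptake, had 22.7 to 25.9 CPM in 4-day libraries, against 13.6 to 21.9 CPM in saline libraries (0.53, SE 0.12, adjusted p = 0.0122 by edgeR), and it was the only one called of the 4 class I-like genes tested. The groups did not overlap, and the call held without each library in turn. In this comparison 9.46% of all genes passed.

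General chaperones of the endoplasmic reticulum that class I heavy chains meet before or during loading, Canx, Calr and Hspa5, were lower. Of 14 genes of loading and trimming, 0 were higher and 2, 3 and 2 were lower after 4, 8 and 11 days, all of them chaperones that serve many proteins. The share of all genes that passed at these times was 9.46, 2.27 and 3.75%. Canx, the calnexin gene, which holds newly made heavy chains, had 135 to 162, 128 to 142 and 148 to 165 CPM after 4, 8 and 11 days, against 177 to 213 CPM in saline hearts, with no overlap at any time. Its log2 fold changes were -0.42, -0.55 and -0.32 (SE 0.09, 0.10 and 0.08, adjusted p = 0.00912, 0.00809 and 0.0364 by edgeR). Calr, the calreticulin gene, which belongs to the loading complex, had 47.2 to 48.1 CPM after 8 days, against 66.4 to 98.7 CPM in saline (-0.83, SE 0.12, adjusted p = 0.00335 by edgeR), and was at -0.35 and -0.42 after 4 and 11 days, not past the test. Hspa5, the gene of BiP, a folding chaperone, was at -0.72, -1.15 and -0.76 (SE 0.15, 0.14 and 0.14, adjusted p = 0.0076, 0.000982 and 0.00832 by edgeR). Its calls and that of Calr held without each library in turn, but not by limma on log2(FPKM + 0.1) (adjusted p = 0.211, 0.25 and 0.227 for Hspa5 and 0.656 for Calr). By that limma test Hspa5 was at -0.45, -1.26 and -0.65 after 4, 8 and 11 days and Calr at -0.86 after 8 days. It called only 1005, 5 and 121 of all genes after 4, 8 and 11 days, against 2540, 610 and 1006 in the main test. The calls of Canx were lost without 8-day C at 8 days (0.0602), on leaving out any single library but saline B and saline C at 11 days (0.0797 to 0.151), with effective lengths as offsets (0.0803, 0.0826 and 0.461) and scaled by library size only (0.219, 0.154 and 0.274), and by limma on log2(FPKM + 0.1) (0.572, 0.734 and 0.822). Erap1, which trims peptides for class I, was at -0.06, -0.01 and 0.02, and Tapbpl, a tapasin relative, at -0.10, -0.03 and 0.01, none past the test; these genes are named after their values were seen.

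**Figure D5:**
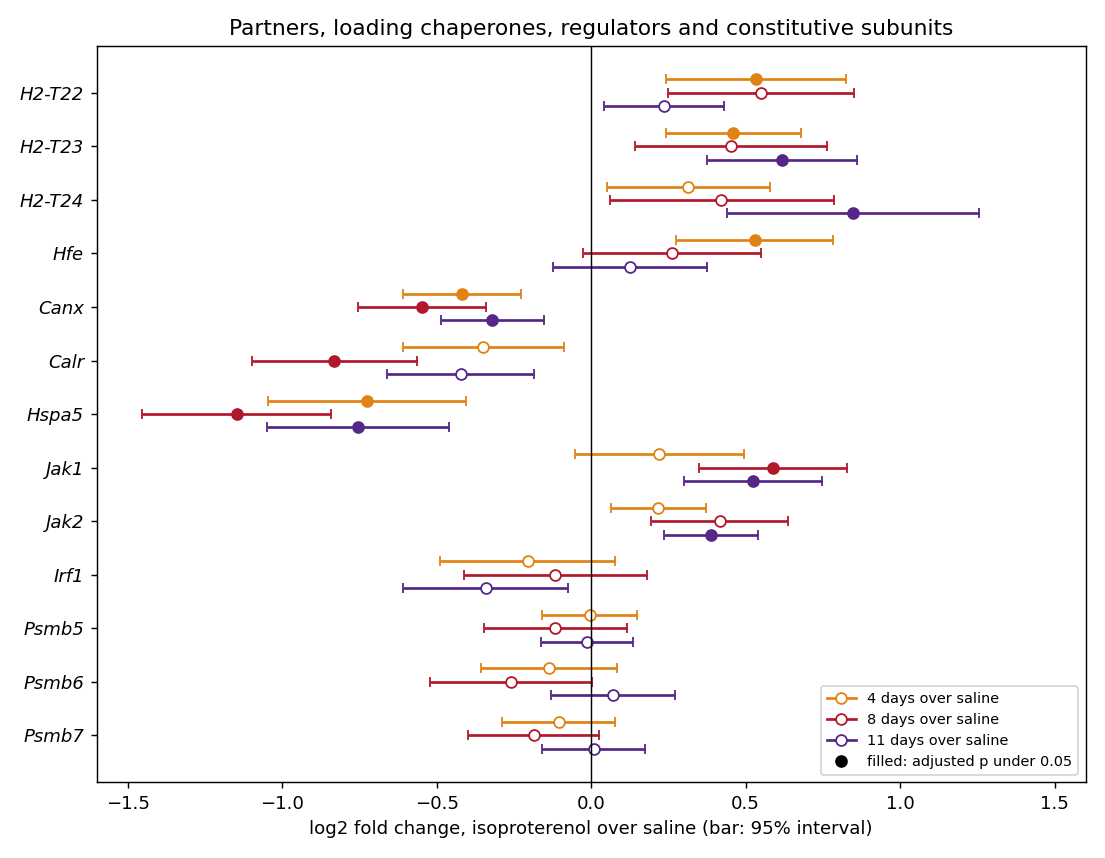
Log2 fold changes over saline after 4, 8 and 11 days, with 95% intervals, of class I relatives, loading chaperones, interferon pathway genes and constitutive subunits, filled where the adjusted p was under 0.05. Canx and Hspa5 are below 0 and called at all times, at -0.32 to -1.15, while the constitutive subunits lie around 0.

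Upstream of the members, Ifng, the gene of interferon-γ, had 0 counts in all 15 libraries, where a count of 0 allows up to 3 counts in each. Irf1, the factor that interferon-γ induces to switch on class I genes, had 7.43 to 10.02, 8.63 to 9.54 and 6.71 to 8.65 CPM after 4, 8 and 11 days, against 8.19 to 12.5 CPM in saline hearts (log2 fold changes -0.20, -0.12 and -0.34, none past the test). By edgeR 9.46, 2.27 and 3.75% of all genes passed after 4, 8 and 11 days. Among the 24 regulators tested, Nfyc, a subunit of the CCAAT-binding factor, was lower after 4 days (-0.36, adjusted p = 0.0349 by edgeR, lost on leaving out any single library but saline B, at 0.0503 to 0.108). It came to -0.15 scaled by library size only (adjusted p = 0.495 by edgeR), to -0.10 by limma on log2(FPKM + 0.1) (0.604) and to -0.31 with effective lengths as offsets (0.107 by edgeR). Jak1, a kinase of interferon receptors, was higher after 8 and 11 days (0.59 and 0.52, SE 0.11 and 0.10, adjusted p = 0.0125 and 0.0136 by edgeR, lost without 8-day B at 0.0861 and without 11-day B at 0.0501), and Jak2 was higher after 11 days (0.39, SE 0.07, adjusted p = 0.00829 by edgeR). The 8-day call of Jak1 was also lost when scaled by library size only (0.352 by edgeR) and by limma on log2(FPKM + 0.1) (0.677). After 8 days that limma test called 5 of all genes, against 610 in the main test.

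Other genes that interferon-γ induces were called in both directions. Of 16 such GTPases, chemokines and Cd274, 1 was higher and 3 lower after 4 days, and 2 were higher after 8 days and 2 after 11 days. The share of all genes that passed was 9.46, 2.27 and 3.75% after 4, 8 and 11 days. Gbp3 was higher at all times (0.57, 0.92 and 0.87, adjusted p = 0.0234, 0.0268 and 0.00906 by edgeR) and Gbp6 after 8 and 11 days (0.90 and 1.05, adjusted p = 0.00835 and 0.0203 by edgeR). Iigp1 (-0.84, SE 0.09, adjusted p = 0.000184 by edgeR) and Gbp4 (-0.40, adjusted p = 0.044 by edgeR) were lower after 4 days, as was Tgtp2, the last of the calls. The calls of Gbp3 after 4 days ended on leaving out any single library but saline B and 4-day B (0.0526 to 0.0878), and after 8 days without saline A, saline C or saline D, or 8-day B or 8-day C (0.0551 to 0.131). That of Gbp4 was lost without saline A or saline B, or 4-day A, 4-day B or 4-day C (0.0567 to 0.14), and that of Gbp6 after 11 days without saline A or saline C (0.0507 and 0.0645). With robust dispersions in edgeR Gbp3 after 8 days and Gbp6 after 11 days lost their calls (0.171 and 0.163), in one fit of all groups Gbp6 after 8 days and Gbp4 did (0.0605 and 0.118), and Gbp4 came to -0.21 scaled by library size only (0.438) and lost its call with effective lengths as offsets (0.0613). By limma on log2(FPKM + 0.1) the calls of Gbp3 (0.0963, 0.749 and 0.139 after 4, 8 and 11 days), Gbp6 (0.683 and 0.176 after 8 and 11 days) and Gbp4 (0.556) were all lost. That limma test called 1005, 5 and 121 of all genes after 4, 8 and 11 days, against 2540, 610 and 1006 in the main test.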

How the data were processed

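Heart RNA was sequenced as 15 total RNA libraries, and the authors deposited, per library, RSEM gene tables of expected counts, FPKM and effective lengths, and transcript tables with the percent of a gene's transcripts (IsoPct). The submitters' processing notes name cutadapt 4.1, HISAT2 2.2.1, RSEM 1.3.3, DESeq2 and GRCm38.p6. The methods name a GENCODE release for transcript assembly but none for the deposited counts, and no strand setting is given in the sources used here, which leaves overlapping genes on opposite strands unresolved. Expected counts, deposited without normalization, split reads shared by related genes, and FPKM depends on the share that other genes take of a library. Total counts were 25404162 to 117777005 per library.

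After rounding of the expected counts, the 26862 genes that reached 10 counts in all libraries together were scaled by TMM and tested with edgeR 4.0.16 (R 4.3.3), quasi-likelihood, in a fit of the 2 groups compared, with Benjamini-Hochberg adjustment over all genes and a threshold of 0.05. DESeq2 1.42.0 was run as an alternative, as was limma 3.58.1 on voom values and on log2(FPKM + 0.1). The FPKM test called fewer of all genes, 1005, 5 and 121 after 4, 8 and 11 days, against 2540, 610 and 1006 by edgeR. Further alternatives were library size, DESeq2 size factors, effective lengths as offsets, no filter, filterByExpr, robust dispersions, one fit of all groups, the letter as a block, summed class I heavy chains and each library left out. An 8-day fit without saline B and 8-day A, and subunit ratios of counts, were added after the data were seen. The edgeR step was tested on simulated data with known changes. Levels in CPM are TMM-scaled. Ratios of FPKM were compared by exact permutation tests (scipy 1.17.1).

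All 10 genes are named in every comparison. From the other lists the counts of calls against saline are given, for the regulators by gene name only. Values are given for at most 4 called genes each, by smallest p, and for Psmb5, Psmb6, Psmb7, Irf1 and Ifng always. A further gene of that rule is not reported here. Likeness lists give the highest r. The genes and lists were chosen with earlier results of these data known. The labels name libraries by letter and do not say that each is a separate mouse, so p-values measure the spread between these libraries. How long each saline mouse was dosed is not stated per mouse.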

Additional observations from a re-analysis of the deposited data

Results flagged for a closer look

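In 3 of the 39 groups of 4 libraries examined, the highest or lowest library stood far from the others, where chance gives about 1 in 20. All 3 were in the saline group, for H2-K1, H2-D1 and Psmb8. H2-K1 and H2-D1 varied together (r = 0.95 after the group means were taken out), so their flags are not separate. The gap of saline B to the next library was 0.852 of the whole range for H2-K1 and 0.945 for H2-D1. The gap of saline C, the lowest, was 0.844 of the range for Psmb8. All of these gaps exceed the 95% critical value of Dixon's test for 4 libraries. Tap1 differed between the treated groups themselves, with a log2 fold change of -0.446 between 11 and 4 days (adjusted p = 0.0416 by edgeR).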

How the results depend on the processing

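Of the 1810 values computed under an alternative, 46 turned direction, and 129 kept direction but lost their call. Whether libraries of the same letter belong together could not be told. The deviations of the 21 pairs of libraries with the same letter correlated at -0.385 to 0.405, and pairs of different letters were not computed. With the letter as a block, the number of members called after 4 days was 0 in place of 1, Nlrc5 after 4 days was at 0.017, and the other counts of members did not change. Psmb3 (adjusted p = 0.0691 by edgeR), Psme4 (0.0549), Nfyc (0.0645) and Gbp4 (0.0706) lost their 4-day calls with it. After 4 days 0 members were also called with effective lengths as offsets (1904 of all genes called) and with all groups in one fit. When scaled by library size only, 3 were called (2826 of all genes, against 2540 with TMM). Leaving out 1 library gave 0 to 3 called after 4 days, 0 to 2 after 8 days, 0 to 2 between 11 and 4 days and 0 to 2 over all groups. Between 11 and 4 days the single fit of all groups called 0. Between 11 and 8 days DESeq2 called 2 and edgeR without a filter 2, in place of 0. Over all groups effective lengths as offsets gave 1. Without saline B and 8-day A, chosen after the data were seen, 4 were called after 8 days and 5 over all groups. The share of all genes called is not given for these refits or for those without 1 library. Their counts of members thus have no background beside them.

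Directions turned for the fold changes listed here, of which Irf1 after 4 days was the largest in the main fit, at -0.205. After 4 days limma on log2(FPKM + 0.1) gave 0.136 for H2-K1, 0.177 for Psmb9, 0.039 for Nlrc5, 0.192 for Psmb5, 0.069 for Psmb6, 0.099 for Psmb7 and 0.046 for Irf1. Scaling by library size only gave 0.155 for H2-K1, 0.15 for Psmb9, 0.129 for Nlrc5, 0.203 for Psmb5, 0.074 for Psmb6 and 0.099 for Psmb7. Effective lengths gave 0.01 for Psmb9, and voom 0.024 for H2-K1, 0.097 for Nlrc5 and 0.003 for Psmb5. After 8 days Irf1 was at 0.032 without saline B and 8-day A. After 11 days FPKM gave 0.007 for Tap1 and 0.066 for Psmb5, library size 0.026 for Tap1, 0.035 for Psmb9 and 0.064 for Psmb5, and voom -0.009 for Psmb7. The cause of the FPKM, offset and voom changes was not tested. The shift by library size moved all genes together, by 0.204 after 4 days, -0.082 after 8 days and 0.075 after 11 days. The share of higher genes among all calls was then 89.6, 37.4 and 65.4% after 4, 8 and 11 days, against 64.0, 47.2 and 48.0% with TMM, and with FPKM 87.8, 0.0 and 73.6%, of 1005, 5 and 121 calls.

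With 1 library left out the ranges that crossed 0 were -0.129 to 0.095 for H2-K1, -0.048 to 0.179 for Tap2, -0.227 to 0.229 for Nlrc5 and -0.034 to 0.018 for Psmb5 after 4 days. After 8 days they were -0.017 to 0.534 for Tap1 and -0.196 to 0.015 for Irf1. After 11 days they were -0.117 to 0.083 for Tap1, -0.087 to 0.023 for Psmb9, -0.032 to 0.021 for Psmb5, -0.003 to 0.142 for Psmb6 and -0.03 to 0.053 for Psmb7. The log2 ratio of Psmb9 to Psmb6 after 4 days ran from -0.022 to 0.245. Counts of all genes called moved as well: DESeq2 called 978 and 1624 after 8 and 11 days, against 610 and 1006 by edgeR. Psmb9 had the lowest count of a member in a library, 46.25.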
